A study of Mus musculus with 2 samples.

Results

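The proteasome genes were taken as all genes whose single annotated symbol starts with Psma, Psmb, Psmc, Psmd, Psme, Psmf or Psmg. They comprised 49 of the 18194 genes read by at least 1 unshared probe set, on 103 of 45101 probe sets. Messenger RNA was measured in NIH3T3, a continuous line of mouse embryonic fibroblasts, after infection with a retrovirus expressing a short hairpin RNA. One culture received a control hairpin (Control RNAi) and the other a hairpin against CCR4b, also named CNOT6L (CCR4b RNAi), a deadenylase of the CCR4-NOT complex that shortens poly(A) tails of mRNAs. Both cultures therefore carried a hairpin virus and grew in serum-containing DMEM. The comparison asks how transcript levels differ when this deadenylase is targeted. The sources used here do not give the hairpin sequences, the time after infection or any selection of infected cells.

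Each group holds 1 array, so there is no replicate error and no test, and "higher" and "lower" refer to these 2 arrays alone. The array signal is in arbitrary units, and every log2 ratio is CCR4b RNAi over Control RNAi. In whole cultures, a lower signal from fewer expressing cells and one from less RNA per cell cannot be told apart. A gene was measured if its brighter array reached a floor of 8.07 units, and its brightest probe set stood for it. Of the 49 genes, 46 were measured, all of them above the floor on both arrays. Psmb8, Psmb11 and Psma8 stayed below the floor on both.

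The proteasome degrades proteins tagged with ubiquitin. Its 20S core is a barrel of alpha and beta rings, and the proteolytic sites lie in the beta subunits PSMB5, PSMB6 and PSMB7. The 19S cap recognises ubiquitin, unfolds the substrate with a ring of ATPases and feeds it into the core. Interferon gamma induces the immunoproteasome, in which PSMB8, PSMB9 and PSMB10 replace the catalytic subunits and favour peptides for MHC class I. The transcription factor NRF1, encoded by Nfe2l1, is known to drive the constitutive subunit genes through antioxidant response elements.

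The start regions of a few genes are shown as picked examples of the contrast described next. Other genes at least 1.5-fold lower, such as the catalytic Psmb7, are not shown. The examples therefore do not show how common the matches are. Psmb5, Psmb6 and Psmb3 (core beta subunits) and Psmg1 (a core assembly chaperone) were at least 1.5-fold lower after CCR4b RNAi, and Psmb9 (an immunoproteasome subunit) was not. The windows are from RefSeq on GRCm38.p6, from 250 bases before to 50 after the annotated start, 5′ to 3′ along the gene. Capitals mark matches on either strand to TGACNNNGC or TGAGNNNGC (forms of the antioxidant response element core), CCAAT (the NF-Y box) or GAAANNGAA (the core of interferon-stimulated response elements).
Psmb5, chr14:54617946-54618245, minus strand: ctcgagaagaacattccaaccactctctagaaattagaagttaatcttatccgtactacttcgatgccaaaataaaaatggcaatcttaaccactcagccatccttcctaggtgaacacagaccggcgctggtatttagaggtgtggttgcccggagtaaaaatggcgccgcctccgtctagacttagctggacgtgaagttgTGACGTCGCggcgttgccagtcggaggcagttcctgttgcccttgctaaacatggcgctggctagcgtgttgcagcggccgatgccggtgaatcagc
Psmb6, chr11:70525107-70525406, plus strand: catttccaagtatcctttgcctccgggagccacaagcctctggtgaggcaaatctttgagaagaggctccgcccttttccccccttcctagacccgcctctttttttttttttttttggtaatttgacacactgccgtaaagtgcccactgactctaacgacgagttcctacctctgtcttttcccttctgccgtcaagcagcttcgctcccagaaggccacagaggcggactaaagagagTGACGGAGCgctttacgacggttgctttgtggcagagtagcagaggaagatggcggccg
Psmb3, chr11:97703184-97703483, plus strand: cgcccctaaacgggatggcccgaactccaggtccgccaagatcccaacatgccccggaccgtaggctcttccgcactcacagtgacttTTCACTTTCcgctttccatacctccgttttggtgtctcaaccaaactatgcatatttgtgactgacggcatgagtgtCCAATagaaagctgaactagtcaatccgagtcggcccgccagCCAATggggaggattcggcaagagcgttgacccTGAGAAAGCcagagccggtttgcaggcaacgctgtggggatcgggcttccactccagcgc
Psmg1, chr16:95990911-95991210, minus strand: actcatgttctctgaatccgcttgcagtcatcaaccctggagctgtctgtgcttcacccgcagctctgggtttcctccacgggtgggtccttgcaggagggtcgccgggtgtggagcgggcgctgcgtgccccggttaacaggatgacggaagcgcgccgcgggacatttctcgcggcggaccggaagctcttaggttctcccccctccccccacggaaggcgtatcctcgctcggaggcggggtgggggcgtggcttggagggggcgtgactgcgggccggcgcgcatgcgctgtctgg
Psmb9, chr17:34187281-34187580, minus strand: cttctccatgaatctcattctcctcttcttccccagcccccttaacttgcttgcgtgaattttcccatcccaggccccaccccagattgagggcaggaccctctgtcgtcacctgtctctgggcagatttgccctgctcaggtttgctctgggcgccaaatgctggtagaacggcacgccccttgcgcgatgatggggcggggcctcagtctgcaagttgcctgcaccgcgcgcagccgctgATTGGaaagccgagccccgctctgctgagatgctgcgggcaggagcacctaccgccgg

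Windows were found for 41 of the 49 genes and for 25 constitutive 20S and 19S subunit genes. The Psmb5 and Psmb6 windows each held 1 match, to TGACNNNGC, and the Psmb3 window held 4 matches, of which 1 was to TGAGNNNGC and 2 were to CCAAT. Psmg1 held no match, and Psmb9 held a single CCAAT on the other strand. Either antioxidant response form was present in 12 of the 25 constitutive genes, which is 13 of their 27 windows (48.1%), against 27.8% of all 32851 windows. The 2 forms differed. TGAGNNNGC was in 40.7% of the constitutive windows against 17.6% of all, but TGACNNNGC in 14.8% against 12.4%, which is near the share of all windows. CCAAT was in 37.0% of the constitutive windows and in 37.4% of all windows, and GAAANNGAA in 4 of 27 (14.8%) against 8.56%. No match printed above overlaps another, and a match in a window is a description of its letters, not of binding.

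The culture labels were checked first on the targeted gene. Cnot6l read 102 units in Control RNAi and 43.0 after CCR4b RNAi on its brightest probe set (2.38-fold lower). Its 3 dimmer probe sets also read lower. Cnot6, which encodes the related deadenylase CCR4a, was lower too, at 222 and 138 units (1.61-fold). Its other probe sets were 2.04-fold, 1.74-fold and 1.81-fold lower. The transcripts of both deadenylases thus differed between the arrays, and the part of Cnot6 in the results was not tested. Fibroblast markers were present, with 8 of 9 measured, whereas 0 of 4 endothelial, 1 of 5 epithelial, 2 of 4 haematopoietic and 1 of 4 muscle markers were measured, from 8.72 units (Acta1) to 29.5 units (Epcam) on the brighter array. The fibroblast markers had a median log2 ratio of 0.24, from -0.76 (Thy1) to 0.60 (Col1a1), with 2 of 8 below 0. The haematopoietic pair was lower after CCR4b RNAi, with Cd68 at 24.0 and 9.42 units and Adgre1 at 13.7 and 9.13 units, while Ptprc, the pan-leukocyte marker, stayed below the floor at 4.70 and 4.67 units. As a check of RNA integrity, the 3' over 5' signal was 1.35 (Control RNAi) and 1.46 (CCR4b RNAi) for Actb, and 0.824 and 0.819 for Gapdh. The part of these differences in the results was not tested.

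Nearly every constitutive subunit of the core and the cap with a Psm symbol was modestly lower in the CCR4b RNAi culture. The cap subunit Sem1 lacks that prefix and is outside these counts. Its log2 ratio was 0.090 on its brightest probe set. Of the 31 constitutive 20S and 19S genes, 30 had a log2 ratio below 0 (28 to 31 over the 8 alternative settings), against 56% of all 11915 measured genes. Their median log2 ratio was -0.41 (1.33-fold lower), beside -0.070 for all measured genes. The immunoproteasome subunits Psmb9 and Psmb10 were not lower, nor were the activators Psme1 and Psme4, on their brightest probe sets, although Psmb9, Psme1 and Psme4 were just below 0 when arrays were scaled to their medians.

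Among all 46 measured proteasome genes, 10 were at least 1.5-fold lower, where 14.6% of all measured genes were, and 0 were at least 1.5-fold higher, where 11.3% were. The 10 comprised 7 constitutive subunits, the activator Psme3, the chaperone Psmg1, and Psmc3ip, whose product is a meiotic recombination factor and shares only the prefix. At the smaller threshold of 1.2-fold, 33 of 46 were lower (34.3% of all measured genes) and 0 higher (25.3% of all). Several subunits sat at the 1.5-fold line, such as Psmb6 at 1.503-fold and Psma5 at 1.497-fold, so a count at that line depends on small shifts. With quantile normalization, or with a loess fit of ratio against signal removed, 4 of 46 remained beyond it (Psmg1, Psmc3ip, Psme3 and Psmd13), and with both arrays scaled to their medians 14 did. Of all measured genes, 12.99% with quantile normalization, 13.23% with loess correction and 18.97% with median scaling were at least 1.5-fold lower, so 4 of 46 lies below the share of all genes. Among all genes called in either direction, 56.3% were lower, and 67.6% after division by the median.

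**Figure D1:**
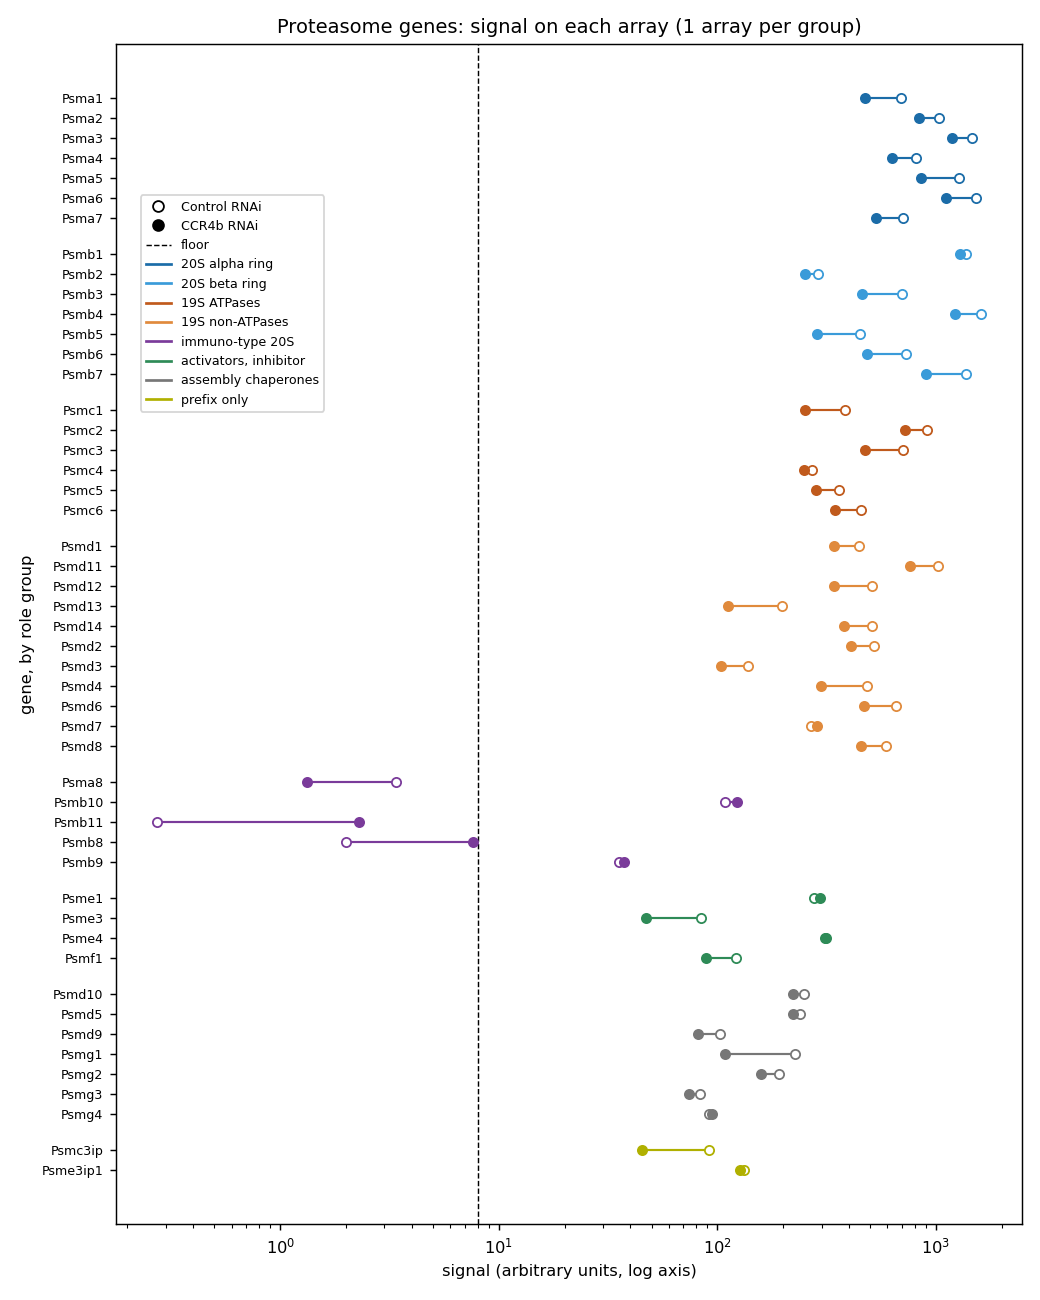
Signal of each proteasome gene in Control RNAi (open circles) and CCR4b RNAi (filled circles), 1 array each, on a log axis in arbitrary units, with the floor of 8.07 units dashed. Filled circles lie left of open ones for 30 of the 31 constitutive 20S and 19S genes, and Psmb8, Psmb11 and Psma8 lie below the floor.

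Brightness matters for this reading, because most of these genes are bright. The measured genes were split into 10 equal classes by mean log2 signal, and 26 of the 31 constitutive subunits lay in the brightest class. The 1192 genes of that class had a median log2 ratio of -0.17 with a robust SD (scaled median absolute deviation) of 0.36. All 26 constitutive subunits in it were below 0, where 69.5% of the class were. Of the 26, 25 were at least 1.2-fold lower, where 40.7% of the class were, and 6 passed 1.5-fold, where 11.8% did. None of them was higher by 1.2-fold (13.9% of the class) or 1.5-fold (5.29%). Of the 31, 28 lay below the median of their own signal class. The constitutive subunits also lay close together. Their robust SD was 0.15, against 0.36 in the brightest class, and their median lay 0.24 below that of the class. That distance ran from -0.28 to -0.22 over the main and 8 alternative settings.

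**Figure D2:**
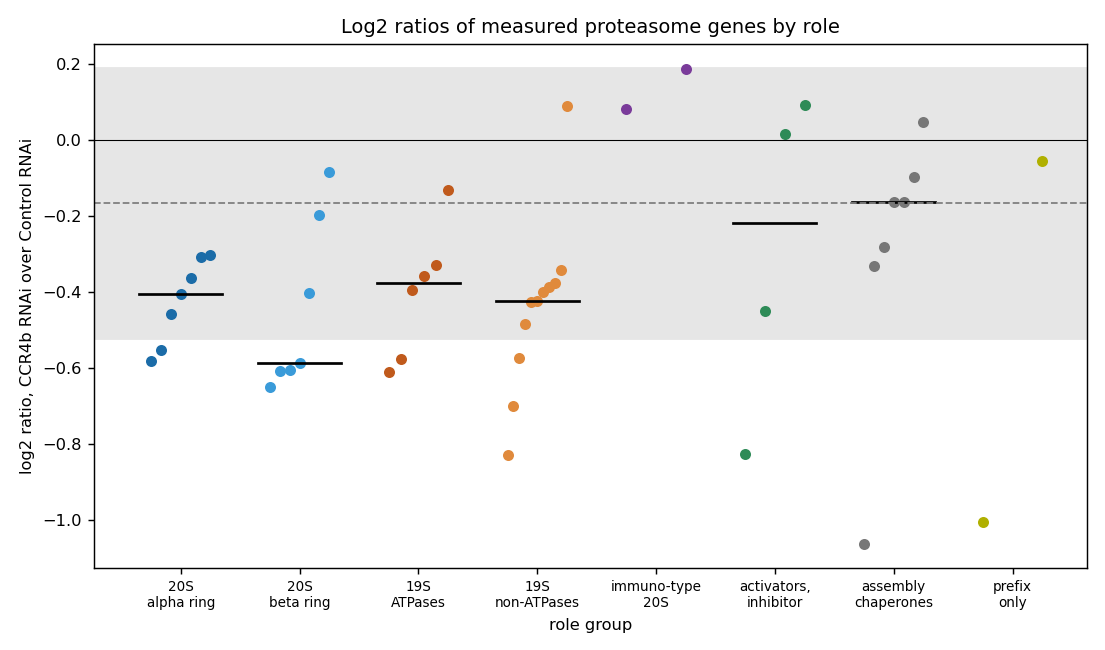
Log2 ratio (CCR4b RNAi over Control RNAi) of each measured gene, by role group, with the group median as a black bar for groups of 3 or more. The dashed line and grey band are the median of the brightest signal class, -0.17, and 1 robust SD (0.36) on either side, and the constitutive groups at left have medians from -0.59 to -0.38.

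The alpha subunits, which form the outer rings and the gate of the core, were all lower. All 7 were below the median of the brightest class, within a narrow range of log2 ratios from -0.58 to -0.30, and their median was -0.41. Psma5 was the lowest, with 1277 units in Control RNAi and 853 after CCR4b RNAi. Its second bright probe set read 724 and 487 units, a log2 ratio of -0.57. Psma3 was the least different, at 1461 and 1184 units (log2 ratio -0.30). A dim Psma3 probe set had the opposite sign, from 11.0 to 12.3 units.

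The beta ring holds the proteolytic sites, and its genes split into a larger lower group and a less affected pair. All 7 were below 0 (56% of all measured genes), with a median log2 ratio of -0.59. At least 1.5-fold lower were 4 of them, where 14.6% of all measured genes and 11.8% of the brightest class were. Psmb5, which encodes the chymotrypsin-like subunit, read 451 units in Control RNAi and 287 after CCR4b RNAi, 1.57-fold lower. Psmb6, for the caspase-like subunit, read 727 and 484 units. Psmb7, for the trypsin-like subunit, read 1372 and 900 units, 1.52-fold lower. The catalytic genes thus had similar log2 ratios, of -0.65, -0.59 and -0.61, at percentiles 8.64, 11.4 and 10.3 of the brightest class. Psmb3, a structural subunit, was 1.52-fold lower, from 698 to 459 units, and its second probe set read 539 and 311 units.

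Psmb1 and Psmb2, also structural subunits of the ring, differed least. Psmb1 read 1367 units in Control RNAi and 1289 after CCR4b RNAi, a log2 ratio of -0.085, which became 0.031 with quantile normalization and 0.070 with loess correction. Its dimmer probe sets had log2 ratios of -0.11 and 0.35. Psmb2 read 288 and 251 units (log2 ratio -0.20) and stayed below 0 in every alternative. In the core, Psmb1 and Psmb2 stood inside 1 robust SD of their signal class and the catalytic genes outside it. That range is not particular to Psmb1 and Psmb2. Psmb4 (log2 ratio -0.40), Psma2, Psma3, Psma4, Psma6 and Psma7 also stood inside it.

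The cap ATPases form the ring that unfolds substrates and opens the core. All 6 were below 0, where 56% of all measured genes and 69.5% of the brightest class were. That class held 5 of the 6. The median log2 ratio of the 6 was -0.38. Psmc1 was the lowest, from 384 to 251 units (1.53-fold lower). Psmc4 was the highest on its brightest probe set, at 272 and 248 units (log2 ratio -0.13), but its other probe set of like brightness read 294 and 185 units (log2 ratio -0.67). The Psmc4 value of -0.13 turned to 0.029 with quantile normalization and 0.043 with loess correction. For this subunit the probe set chosen decides the size of the difference.

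The non-ATPase subunits of the cap include scaffolds, ubiquitin receptors and the deubiquitinase PSMD14. Of 11 genes, 10 were below 0, where 56% of all measured genes and 69.5% of the brightest class were. That class held 8 of the 11. The median log2 ratio of the 11 was -0.42. Psmd13, a lid subunit, had the lowest log2 ratio of the constitutive set, at 198 and 112 units (-0.83). Its second probe set read 91.8 and 65.8 units, but a dim one read 16.8 units in Control RNAi and 30.4 after CCR4b RNAi. The median over its measured probe sets was -0.30. Psmd4, which encodes the ubiquitin receptor RPN10, was lower on each of its 3 probe sets, from 482 to 297, from 392 to 257 and from 19.9 to 8.63 units. The log2 ratios of the brightest and second were -0.70 and -0.61. Psmd7, a partner of PSMD14 in the lid, was the exception. It read 269 units in Control RNAi and 285 after CCR4b RNAi (log2 ratio 0.088), which became -0.0062 with scaling by array medians and -0.17 as the median over its measured probe sets.

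Different probe sets of a gene give a partial technical check within each array. Of 76 proteasome probe sets that cleared the floor on each array, 63 were below 0. Among constitutive subunits alone it was 49 of 53, with a median log2 ratio of -0.43. The share below 0 over all probe sets that cleared the floor on each array was not computed. By gene, it was 56% of all measured genes and 69.5% of the brightest class. Of 15 constitutive genes with several such probe sets, 12 had the same sign on all of them. Across all 4550 genes with several such probe sets, 56.5% did. Those genes were of any brightness, whereas 26 of the 31 constitutive subunits lay in the brightest class. A share matched for brightness was not computed. The constitutive genes whose probe sets disagreed were Psma3, Psmb1 and Psmd13, in each case through a probe set of 11.0 to 16.8 units in Control RNAi.

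**Figure D3:**
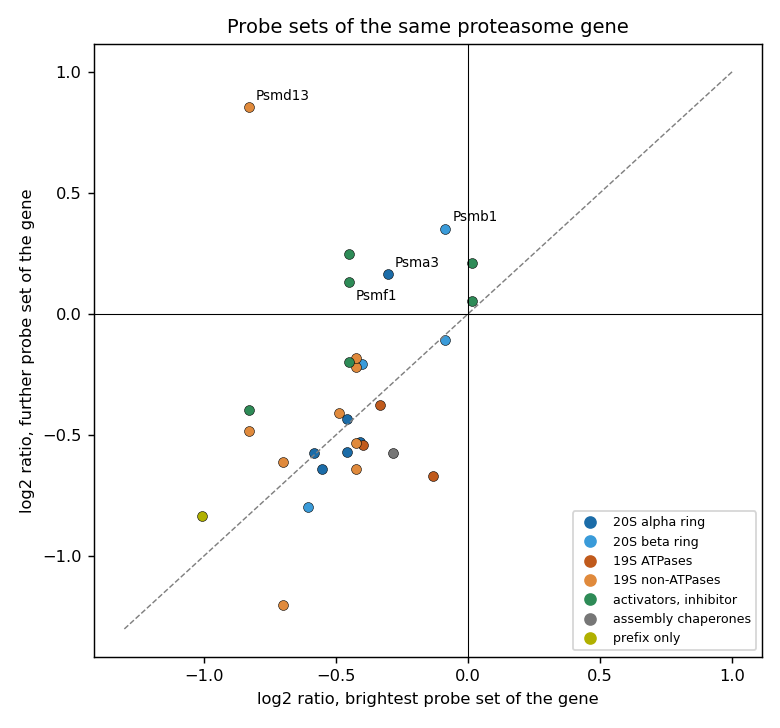
Log2 ratio of each further probe set against that of the brightest probe set of the same gene, for 20 proteasome genes with 2 or more probe sets that cleared the floor on each array; the dashed line is equality. Most points lie in the lower left quadrant, 16 of the 20 genes have 1 sign throughout, and the 4 exceptions are labelled.

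The immunoproteasome subunits did not follow their constitutive counterparts. Psmb10, the counterpart of Psmb7, read 108 units in Control RNAi and 123 after CCR4b RNAi (log2 ratio 0.19) and stayed above 0 in all 8 alternatives. Psmb9, the counterpart of Psmb6, read 35.3 and 37.4 units (log2 ratio 0.081), with -0.013 after division by the median. The log2 ratio of Psmb10 was 0.79 above that of Psmb7, and that of Psmb9 was 0.67 above that of Psmb6. Psmb8, the counterpart of Psmb5, read 2.01 and 7.66 units on its brighter probe set and stayed below the floor. The thymus-specific Psmb11 and the testis-specific Psma8 were also below it. Each of the measured pair lay within 1 robust SD of its own signal class (0.44 for Psmb10 and 0.57 for Psmb9), whereas Psmb5, Psmb6 and Psmb7 lay outside theirs. Among constitutive core genes, Psmb1, Psmb2, Psmb4 and several alpha genes also lay inside theirs.

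Activators that cap the core in place of 19S went separate ways. Psme1, an interferon-inducible PA28 subunit, read 276 and 294 units, a log2 ratio of 0.091 that became -0.0032 after division by the median. Psme2, its partner, shares its probe set with another symbol and was not analysed here. Psme3, the nuclear PA28 gamma, was 1.77-fold lower, from 84.0 to 47.3 units, and a second probe set read 36.2 and 27.5 units. Psme4, which encodes the activator PA200, read 312 and 315 units, a log2 ratio of 0.015 that became -0.078 after division by the median. Its next probe sets had 0.21 and 0.052, and its dim ones were lower. Psmf1, the proteasome inhibitor PI31, read 121 and 88.6 units (log2 ratio -0.45), but its dimmer probe sets had 0.13, -0.20 and 0.25.

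The assembly chaperones build the core and the base of the cap and then leave. Of 7 measured, 6 had a log2 ratio below 0 (56% of all measured genes). At 1.2-fold, 3 were lower (34.3% of all) and 0 higher (25.3% of all). Their median log2 ratio was -0.16, and 1 of 7 was at least 1.5-fold lower (14.6% of all). That gene was Psmg1, a partner in the dimer that assembles the alpha ring. It read 226 units in Control RNAi and 108 after CCR4b RNAi (2.09-fold lower). Psmg1 had the lowest log2 ratio of all measured proteasome genes, -1.06, at percentile 3.86 of its signal class, and between -1.16 and -0.91 over the alternatives. Psmg2, its dimer partner, read 192 and 158 units, and 119 and 80.1 on a second probe set. Psmg4 was the highest of the group, at 91.4 and 94.4 units (log2 ratio 0.047, or -0.047 after division by the median). The base chaperones Psmd5, Psmd9 and Psmd10 had log2 ratios of -0.10, -0.33 and -0.16, and over the alternatives those of Psmd5 and Psmd10 reached 0.071 and 0.0081.

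Of the prefix genes that encode no subunit, Psmc3ip read 91.2 and 45.4 units, with 82.6 and 46.4 on its second probe set. Psme3ip1, which encodes a partner of PA28 gamma, read 132 and 127 units (log2 ratio -0.055), with 0.065 after quantile normalization and 0.084 after loess correction. Without this pair, 9 of 44 measured genes were at least 1.5-fold lower (14.6% of all measured genes). The median log2 ratio was -0.39 with or without the pair.

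Of the 11 measured proteasome partners with other symbols, 6 were below 0 (56% of all measured genes). At least 1.2-fold lower were 3 (34.3% of all). At 1.5-fold, 2 were lower (14.6% of all) and 0 higher (11.3% of all), and the median log2 ratio was -0.14. Pomp, the maturation factor that completes the beta ring, read 771 and 396 units, 1.95-fold lower and at percentile 2.68 of the brightest class. Uchl5, a cap-bound deubiquitinase, read 140 and 88.9 units (1.58-fold lower), and its other probe set was below the floor. Its log2 ratio fell short of 1.5-fold with quantile normalization (-0.54) and loess correction (-0.53). Usp14, the other such enzyme, was just short of the line at 272 and 182 units. Sem1, the smallest subunit of the cap, read 1166 and 1241 units (log2 ratio 0.090), with -0.039 on a second probe set. The lowest log2 ratios among the assembly factors were those of Psmg1 and Pomp, both of which serve the core.

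Ubiquitin shuttles and receptors, which bring substrates to the cap, had a median log2 ratio of -0.095. Of 10 measured, 2 passed 1.5-fold downward (14.6% of all measured genes) and 0 upward (11.3% of all). Rad23b, a shuttle, read 435 and 252 units (1.73-fold lower), and its second probe set read 153 and 97.5 units. Ubqln4 read 45.4 and 24.7 units, but its second probe set read 19.9 and 18.4 units. As the median over probe sets, Rad23b (-0.46) and Ubqln4 (-0.49) both fell short of 1.5-fold, as did Ubqln4 with the floor at the 75th percentile (-0.34). The segregase gene Vcp was at 674 and 619 units.

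The known regulators did not move in a single direction. Nfe2l1 itself read 87.0 units in Control RNAi and 77.5 after CCR4b RNAi (log2 ratio -0.17, near the -0.14 median of its signal class). Nfe2l2, which encodes NRF2, read 343 and 430 units. Of 12 measured regulators, 1 passed 1.5-fold downward (14.6% of all measured genes) and 1 upward (11.3% of all). The lower one was Nfyb, a subunit of the CCAAT-binding factor NF-Y, at 95.0 and 51.5 units, with 55.0 and 35.6 on its second probe set. The higher one was Foxo3, a transcription factor of growth arrest, at 210 and 351 units, with 83.4 and 146 on its second.

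Genes that act with the immunoproteasome in antigen presentation lay on both sides of 0. Of 12 measured MHC class I presentation genes, 5 were below 0 on their brightest probe sets (56% of all measured genes). Their median log2 ratio was 0.070. At 1.5-fold, 0 were lower (14.6% of all) and 2 higher (11.3% of all). At 1.2-fold, 2 were lower (34.3% of all) and 3 higher (25.3% of all). The lower pair were chaperones of the endoplasmic reticulum that help class I molecules fold. Canx, for calnexin, read 1010 units in Control RNAi and 725 after CCR4b RNAi (1.39-fold lower), and its other probe sets were 1.69-fold and 4.43-fold lower. Calr, for calreticulin, read 1526 and 1204 units (1.27-fold lower) and was lower on all 3 of its probe sets. Tap1, a subunit of the peptide transporter, read 11.5 units in Control RNAi and 23.9 after CCR4b RNAi, and its other 3 probe sets were below the floor. Tap1 and Psmb9 lie head to head on chromosome 17, with 225 bases between their annotated starts, so the Psmb9 window shown above also covers the start of Tap1. Tap1 was thus 2.07-fold higher from a dim signal, whereas Psmb9 differed by 1.06-fold. Erap1, a peptide-trimming enzyme, read 18.7 and 38.9 units, with a log2 ratio of 1.06 that shrank to 0.12 with the floor at the 75th percentile. H2-M3, a nonclassical class I gene, read 145 and 179 units (1.24-fold higher). The bright B2m, H2-K1 and H2-D1 had log2 ratios of 0.15, 0.20 and -0.12. For H2-D1 the sign depended on the probe set. A second bright one read 543 and 571 units (log2 ratio 0.071), and dimmer ones had 0.50, 0.70 and, near the floor, -0.21.

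**Figure D4:**
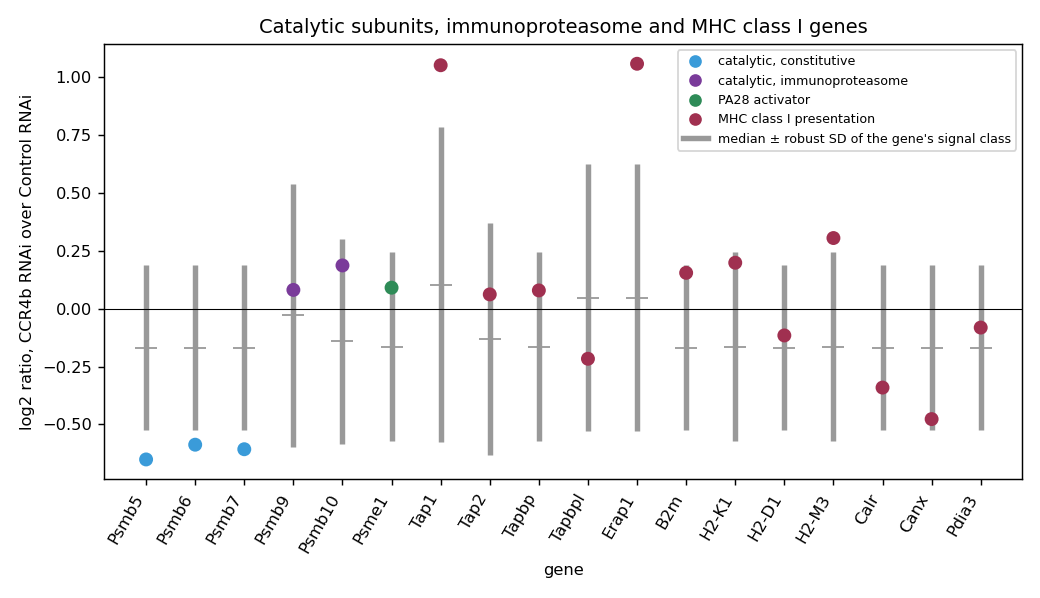
Log2 ratio (CCR4b RNAi over Control RNAi, dots) of constitutive and immunoproteasome catalytic subunits, Psme1 and MHC class I presentation genes; grey bars are the median and 1 robust SD of genes in the same signal class. Psmb5, Psmb6 and Psmb7 lie below their bars, Psmb9 and Psmb10 inside, and H2-M3 and the dim Tap1 and Erap1 above.

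Interferon signalling genes that could set the immunoproteasome genes had a median log2 ratio of 0.17 over 11 measured members. On their brightest probe sets, 5 of the 11 were below 0 (56% of all measured genes). These 5 were Stat2 (-0.26), Irf3 (-0.16), Jak2 (-0.14), Irf2 (-0.080) and Jak1 (-0.054). Of the 11, 1 passed 1.5-fold upward (11.3% of all measured genes) and 0 downward (14.6% of all). That member was Irf9, at 13.1 and 19.6 units, a dim signal at the 1.5-fold line (1.501-fold). Its log2 ratio of 0.59 fell short of 1.5-fold in several alternatives. It was 0.49 with median scaling and with quantile normalization, 0.46 with loess correction and 0.55 without a floor. Irf1, a direct activator of Psmb9, read 114 and 155 units (1.37-fold higher), and Nlrc5, the MHC class I transactivator, was below the floor on both arrays.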

How the data were processed

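Total RNA of NIH3T3 cells with a control or a CCR4b hairpin was hybridised to Affymetrix Mouse Genome 430 2.0 arrays, 1 per group. The deposited values are linear probe-set intensities, which the authors made in GCOS with a global normalization, per the series design text and the submitters' processing notes. The sources used here do not state the GCOS version, the target value or detection calls.

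Of the probe sets, 34958 had 1 gene symbol, 932 had several and 9211 were not listed in the platform annotation. Only those with 1 symbol were used, and all 49 proteasome symbols matched the GRCm38.p6 RefSeq gene table. Signals were raised to a floor at the 50th percentile of both arrays (8.07 units) and turned into log2 ratios. The number of arrays limits the precision. Probe sets ending in _x_at or _s_at can bind several transcripts. The 8 alternatives were scaling by array median, quantile normalization, loess correction (span 0.3), floors at the 25th and 75th percentiles, log2 of signal plus 1 without a floor, the median over measured probe sets, and leaving out _x_at and _s_at probe sets. Named genes were those at least 1.5-fold apart, the highest and lowest of each role group, catalytic subunits and their counterparts, Psme1, genes whose probe sets differ in sign, Cnot6l and Cnot6, and up to 3 genes per direction in each partner list. Psmb2, Psmg2, the base chaperones, Psme3ip1 and some partner genes within 1.5-fold were added after their values were seen. Members and lists were chosen with earlier results of these data known. Calculations used pandas 2.3.3 and statsmodels 0.14.6 and were tested on simulated data.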

Additional observations from a re-analysis of the deposited data

How the results depend on the processing

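The median of the constitutive 20S and 19S genes stayed below 0 in all 8 alternatives, between -0.50 and -0.25, and 28 to 31 of the 31 genes did. The scaling set the size. With quantile normalization and with loess correction, the genes at least 1.5-fold lower numbered 4 of 46, and 1 of 31 among constitutive subunits, against 11 of 31 after division by the median. The shares of all measured genes were 12.99%, 13.23% and 18.97%, and of the brightest class 5.96%, 6.12% and 18.1%, in that order of settings. The constitutive median was -0.25 with loess correction. The medians with quantile normalization and with loess correction were -0.24 and -0.23 for the alpha ring, -0.43 and -0.42 for the beta ring, and -0.29 and -0.26 for the non-ATPases of the cap. After division by the median, the non-ATPases had -0.52 and the immunoproteasome group 0.040. The brightest class moved with these, to -0.011 with quantile normalization and -0.0058 with loess correction, by construction of both methods. With the floor at the 25th percentile, 1 gene, Psmb8, was at least 1.5-fold higher, as more dim genes counted as measured. No paired analysis was possible because each group has 1 array, and no array could be left out. Dim probe sets near the floor limit Psmb8, Tap1, Erap1 and Irf9.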

Other observations

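Other bright complexes were looked up after the proteasome values were seen, by gene symbol, and are described without a test. The chaperonin CCT, which folds actin and tubulin, was lower in all 8 genes, with a median log2 ratio of -0.54, led by Cct6a at 1314 units in Control RNAi and 670 after CCR4b RNAi. The COP9 signalosome, whose architecture resembles the lid of the 19S cap, was below 0 in 8 of 9 genes (median -0.41), and translation factor eIF3, the third complex of that architecture, in 9 of 11 (median -0.32). The small subunit gene Cops9 was at 1328 and 1419 units, as Sem1 was near 0 in the proteasome. The vacuolar ATPase, another complex of many subunits, was below 0 in 4 of 15 measured genes, with a median of 0.099. Of all measured genes, 56% were below 0, and of the brightest class 69.5%, with a class median of -0.17. That class held all 8 chaperonin genes and 10 of the 11 eIF3 genes. It held 5 of the 9 COP9 genes and 7 of the 15 vacuolar ATPase genes. Complexes of many subunits therefore did not all have negative medians on these arrays.

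Ubiquitin-conjugating enzymes of the Ube2 family, which act upstream of the proteasome, had a median log2 ratio of -0.20 over 29 measured genes, and 3 passed 1.5-fold downward (14.6% of all measured genes) and 1 upward (11.3% of all). Ube2c and Ube2s, the enzymes of the anaphase-promoting complex, read 501 and 176 units and 761 and 457 units. Ube2t, of the Fanconi pathway, read 75.6 and 39.8 units. Ube2l6, the conjugating enzyme of the interferon-induced modifier ISG15, was the higher one, at 9.47 and 16.7 units, close to the floor. The ubiquitin-specific proteases named Usp had a median of -0.16 over 38 measured genes. Of these, 6 passed 1.5-fold downward (14.6% of all measured genes) and 3 upward (11.3% of all), with the former share near that of all measured genes.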
